A study of Zea mays with 9 samples.

Results

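MADS-box transcription factor genes of the maize flower and ovule, 6 in number, were followed as read counts through whole kernels and then through dissected endosperm. The genes were fixed by name and model identifier: zag1 (GRMZM2G052890), zag2 (GRMZM2G160687), zmm1 (GRMZM2G359952), bde1 (GRMZM2G160565), zag5 (GRMZM2G003514) and si1 (GRMZM2G139073). They are 6 of the 110028 gene models in the files, and they had been proposed as markers of maternal tissue. The RefSeq name table pairs GRMZM2G359952 with the names ZMM2 and AGAMOUS and holds no record named zmm1, so this gene is called ZMM2 here. Another record of that table also carries the name zmm2 and is tied to the models GRMZM2G316366 and GRMZM2G492156, which had at most 156 reads at any stage.

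All plants were of the inbred B73, the genotype of the maize reference genome, and were raised under glass, with self-pollinated ears for all stages after 0 DAP. The kernel series holds entire kernels of 0 (unpollinated), 2, 3, 4 and 6 days after pollination (DAP). The endosperm series holds tissue of 8, 10 and 12 DAP from which embryo and pericarp had been cut away. Every stage has 1 biological sample, and only the 0 DAP RNA was sequenced more than once, as the technical replicates a and b. The step from 6 to 8 DAP is therefore also the step from kernel to endosperm, and age and tissue cannot be told apart there.

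MADS-box proteins bind DNA as dimers and larger complexes, and combinations of their classes set the identity of the floral organs. The AGAMOUS class specifies stamens and carpels and ends the growth of the floral meristem, a related class acts in ovules, and the APETALA3 and PISTILLATA classes work together in stamens and in the lodicules of grass flowers. SEPALLATA and AGL6 proteins take part in many of these complexes. The young kernel is largely the maternal ovary wall and nucellus around the small fertilised endosperm and embryo, whereas the endosperm itself is a product of fertilisation.

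The libraries held 17716275 to 40145710 counted reads. Levels are given as v, the count as CPM of a library size scaled by the TMM method, which relates each gene to the bulk of genes. The rule of size asked for a 4-fold ratio of (v + 1) between stages, a v of 10 or more in the higher stage and a ratio whose exact 95% interval did not include 1. "Fell" and "rose" are used where all of these were met. Intervals cover counting error only, and with 1 sample per stage there is no p-value. Endosperm markers separated the tissues as labelled: the summed v of 9 storage genes lay at 32.5 to 129.5 in kernels and 4408 to 142000 in endosperm. Within kernels, however, the sum was 111.3 at 0 DAP, before pollination, and lowest at 6 DAP. FL2 had 3742, 1799, 1785 and 1773 reads at 0, 2, 3 and 4 DAP but 2 at 6 DAP. For wx1 the order was reversed, with v = 1.31 at 0 DAP and 18.6 at 6 DAP. The source of the storage gene reads in the early kernels was not tested. The embryo and oil body markers, of which ole1 is also an oil body gene of the aleurone, summed to at most 2.01 in kernels and to 67.5, 257.7 and 176.4 at 8, 10 and 12 DAP. Of 15 genes of green tissue, PSBQ1 alone made up most of the summed v, which was 14.1 to 26.9 in kernels and 41.9, 24.1 and 16.0 in endosperm, where 8 to 11 of the 15 had no read.

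Of the 6 genes, 5 had a lower v at every endosperm stage than at any kernel stage, and si1 did not. This count stands against a background of 24.2% of the 10062 models with v of at least 10 in every kernel stage, which include neither ZAG5 nor si1, and of 17.2% of the 44687 models that reached v = 1 in a library, called detected below. The full rule of size, required of all 15 pairs of a kernel and an endosperm stage, was met by ZAG1 alone, against 2.15% of the former models and 0.483% of the latter. With the 8 DAP stage left out, 3 of the 6 met it (ZAG1, ZMM2 and zag2). That asks for fewer pairs, and the share of all models was not computed for it, so the shares above do not apply. Under library totals, 601 models were lower and 72 higher by this rule, against 216 and 201 under TMM. Of the 6 genes, 4 (ZAG1, ZMM2, zag2 and bde1) had v of at least 10 in every kernel stage, ZAG5 did so at 3 kernel stages and si1 at none. With no minimum level ZAG5 also met the rule, whereas si1, whose kernel and endosperm levels overlap, did not. In tissue samples of this kind fewer cells of a type and less RNA per cell cannot be told apart.

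**Figure D1:**
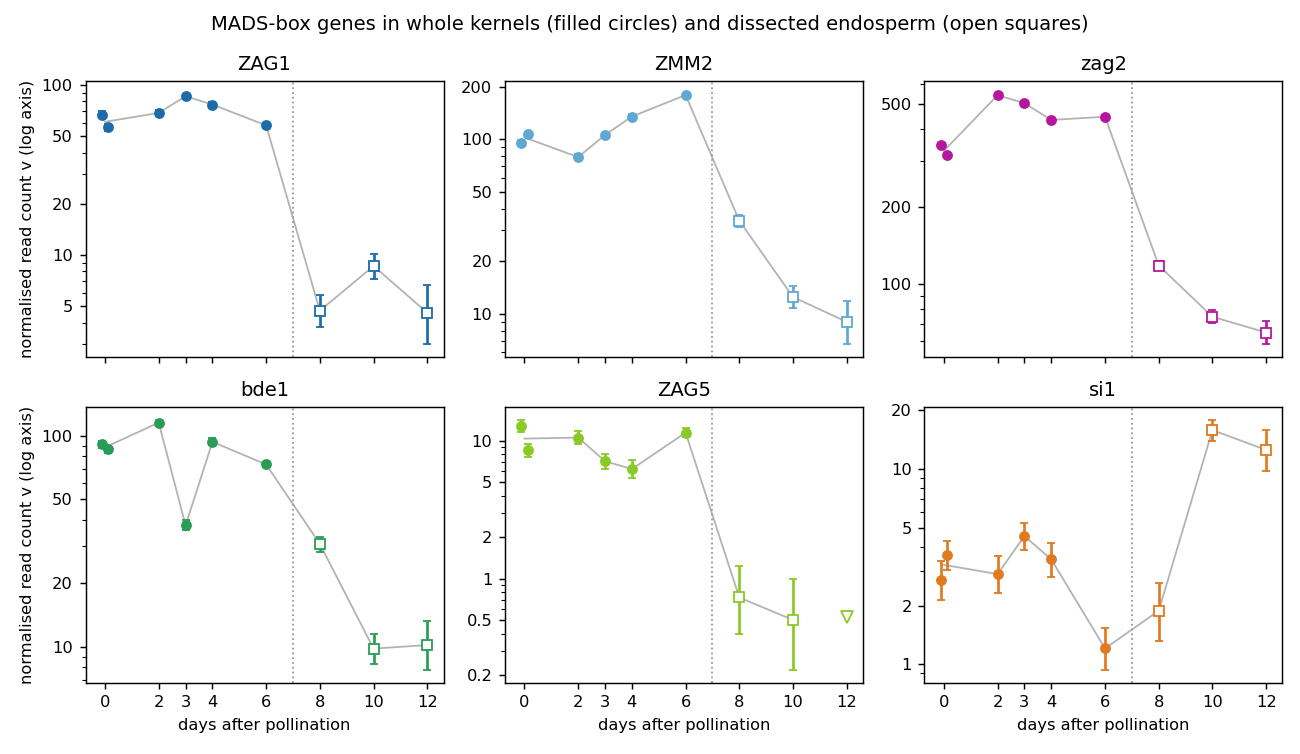
Normalised read count v (log axis, scaled separately in each panel) of the 6 genes by days after pollination, with exact Poisson 95% intervals of the counts; filled circles are whole-kernel libraries (both technical replicates at 0 DAP), open squares are endosperm libraries, the grey line joins the stages and the dotted line marks the change of tissue. The open triangle for ZAG5 at 12 DAP stands at the v of 3 reads, since no read was counted; 5 genes lie lower in every endosperm library than in any kernel library, and si1 lies highest at 10 and 12 DAP.

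The AGAMOUS-class gene ZAG1, which in maize limits the growth of the floral meristem, had v = 60.7, 68.4, 85.7, 76.6 and 57.8 in kernels of 0, 2, 3, 4 and 6 DAP. It had v = 4.70, 8.62 and 4.57 in endosperm of 8, 10 and 12 DAP, from 90, 137 and 26 reads. The kernel levels lay close together, with the highest 1.48 times the lowest. The replicates a and b, at 66.9 and 56.2, differed 1.19-fold. From 6 to 8 DAP ZAG1 fell 12.3-fold (95% interval 9.97 to 15.3), and its closest pair of stages across the tissues, 6 and 10 DAP, differed 6.71-fold (95% interval 5.65 to 8.02). Its mean endosperm level was 8.54% of its mean kernel level.

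ZMM2, the other AGAMOUS-class gene going by its names in the RefSeq table alone, followed another course in kernels. Its v was 102.3, 78.8, 105.6, 134.7 and 178.8 in kernels of 0, 2, 3, 4 and 6 DAP. From 2 DAP on each kernel stage stood above the one before, and 6 DAP was 2.27 times 2 DAP (95% interval 2.17 to 2.37), short of the ratio of 4. The technical replicates differed 1.12-fold, but they share the same RNA and leave out variation between samples. Of the models with v of at least 10 in every kernel stage, 3.14% had such a steady course with a total of at least 2-fold. That pattern is the course of ZMM2 itself and was not planned, so the share is descriptive only. In endosperm ZMM2 had v = 34.1, 12.4 and 8.97, and it fell 5.25-fold (95% interval 4.85 to 5.69) from 6 to 8 DAP. The reads of ZMM2 relative to those of ZAG1 in the same library, a ratio that needs no scaling between libraries, were 1.43 and 1.91 in the 0 DAP replicates, 1.15 at 2 DAP and 3.09 at 6 DAP.

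The ovule gene zag2 was the most counted of the 6 in every library. Among all models it stood between rank 39 and rank 95 by reads in kernels, and between rank 1357 and rank 2567 in endosperm; these ranks are of reads, which also follow transcript length. Its v was 329, 541, 504, 434 and 447 over the same stages. The 0 DAP kernels were thus the lowest, and 2 DAP was 1.64 times as high (95% interval 1.61 to 1.68). That is more than the 1.09-fold difference between the technical replicates at 346 and 317, which leaves out variation between samples. In endosperm zag2 had v = 117.9, 74.5 and 64.7. The step from 6 to 8 DAP was 3.79-fold lower (95% interval 3.63 to 3.96), just short of the rule under TMM, and it met the rule by library totals, by totals without the zein models and by totals without the 100 most counted models. The closest pair, 0 and 8 DAP, differed 2.79-fold (95% interval 2.68 to 2.92). With 368 reads at 12 DAP, against 22428 at 0 DAP, zag2 remained above the v of 0.528 that 3 reads give there, a limit of counting only. In the other direction, the storage gene FL2 had 3742 reads at 0 DAP and 580089 at 12 DAP. The source of the zag2 reads in endosperm was not tested.

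The AGL6-class genes differed from each other in level and in course. For bde1 (bearded-ear1), which in maize acts on floral meristem determinacy, v was 88.2, 115.5, 37.6, 93.6 and 73.2 in kernels of 0, 2, 3, 4 and 6 DAP. The 3 DAP library stood apart: it was at 0.326 of the 2 DAP level (95% interval 0.305 to 0.347), and the 4 DAP level was 2.49 times as high (95% interval 2.33 to 2.66), whereas replicates a and b differed 1.06-fold. Of the models with v of at least 10 in every kernel stage, 0.656% were at most at 1/2 of both neighbouring stages at 3 DAP. That pattern is the course of bde1 itself and was not planned, so the share is descriptive only. With 1 sample at 3 DAP, a difference between samples of that stage was not measured.

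In endosperm bde1 had v = 30.7, 9.81 and 10.2. The 8 DAP level was 2.38-fold lower than at 6 DAP (95% interval 2.18 to 2.60) but 1.23-fold lower than at 3 DAP (95% interval 1.11 to 1.35), so the separation of the tissues rested on a narrow margin for this gene. From 8 to 10 DAP it stood 3.13-fold lower (95% interval 2.62 to 3.76), the largest such difference among the 6 genes in that step that pointed down, without meeting the rule.

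Its relative ZAG5 was counted at a low level. It had v = 10.4, 10.6, 7.12, 6.24 and 11.5 in kernels and 0.732, 0.503 and 0 in endosperm, the last from 14, 8 and 0 reads. The kernel range of 1.84-fold was little wider than the 1.5-fold difference between replicates a (12.9) and b (8.58). From 6 to 8 DAP ZAG5 fell 15.7-fold (95% interval 9.27 to 28.8). At 12 DAP no read was found, where 3 reads would give v = 0.528 and the exact 95% upper limit is 0.649. The ratio of 12 to 8 DAP had a 95% interval of 0 to 1.015, which includes 1, so a further change was not resolved.

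The APETALA3-class gene si1 (silky1), needed for stamen and lodicule identity, ran the other way. It had v = 3.23, 2.90, 4.53, 3.44 and 1.21 in kernels, from 66 to 220 reads, and 1.88, 15.8 and 12.5 in endosperm, from 36, 251 and 71 reads. The 6 DAP kernels and the 8 DAP endosperm were the lowest stages, and the 10 and 12 DAP endosperm stood above every kernel stage. From 8 to 10 DAP si1 rose 8.39-fold (95% interval 5.90 to 12.2), against 0.897% of detected models that rose in that step and 2.73% of those with v of at least 10 at either stage. From 8 to 12 DAP it rose 6.64-fold (95% interval 4.38 to 10.2), where 1.55% of detected models and 4.59% of those with v of at least 10 at either stage rose. The replicates a and b had 77 and 143 reads of si1, a 1.34-fold difference in v.

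The rise of si1 depended on the scaling of the late libraries, in which the 10 most counted models took 23.5% (10 DAP) and 40.8% (12 DAP) of all reads, against 2.40% or less in kernels. As CPM of the library total, with no further scaling, si1 had 1.64 in 6 DAP kernels and 2.01, 8.34 and 1.94 in the endosperm stages, and neither step was called. All of these levels lay below the minimum of 10, so the higher level at 10 than at 8 DAP could not be called in that unit. The 10 DAP library was the highest of all in that unit too, above the 6.74 at 3 DAP, whereas 12 DAP was not. The embryo and oil body markers were also highest at 10 DAP, at the sums given above, with globulin-1 at v = 4.13, 17.4 and 1.76 and vp1 at 0.732, 1.70 and 0.528 in the 3 endosperm stages. Their part in the level of si1 was not tested.

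Ratios between genes within a library are free of the scaling. The reads of zag2 were between 5.18 and 7.91 times those of ZAG1 in the 6 kernel libraries. They were 25.1 times those of ZAG1 at 8 DAP (95% interval 20.3 to 31.3), 8.65 times at 10 DAP (95% interval 7.24 to 10.4) and 14.2 times at 12 DAP (95% interval 9.50 to 22.0). At 8 DAP ZAG1 was therefore reduced more than zag2 in the same library, beyond counting error, and the genes that were lower in endosperm did not keep the proportions they had in kernels. The reads of zag2 over those of bde1 were between 3.68 and 6.11 in the kernel libraries other than 3 DAP, where the ratio was 13.4. In endosperm they were 3.84 at 8 DAP, 7.60 at 10 DAP (95% interval 6.42 to 9.04) and 6.35 at 12 DAP (95% interval 4.80 to 8.52), so that 10 DAP lay above that kernel range and the interval at 12 DAP reached into it.

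**Figure D2:**
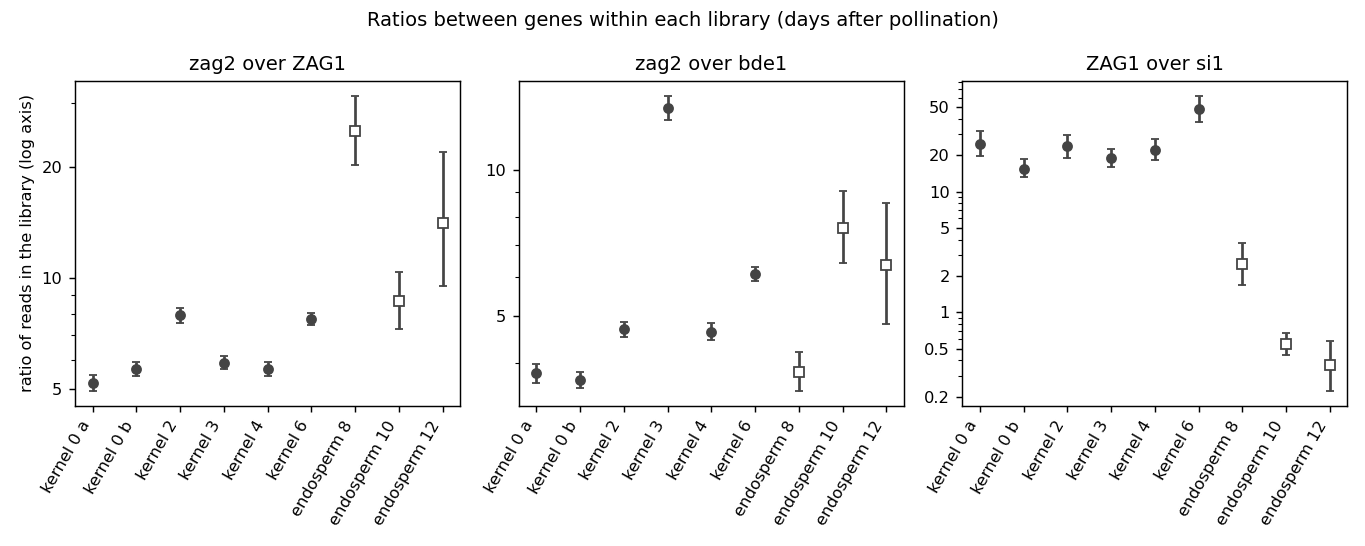
Ratio of the reads of 2 genes within each library (log axis), for zag2 over ZAG1, zag2 over bde1 and ZAG1 over si1, with exact conditional binomial 95% intervals; filled circles are kernel libraries (0 a and 0 b are the technical replicates), open squares are endosperm libraries, and numbers are days after pollination. The first ratio is highest at 8 DAP (25.1), the second at 3 DAP (13.4), and the third goes from 47.9 at 6 DAP to 0.366 at 12 DAP.

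As shares of the reads of all 6 genes, zag2 held between 54.8% and 67.7% in the kernel libraries and 62.0%, 61.2% and 64.1% in endosperm of 8, 10 and 12 DAP. ZAG1 held between 7.52% and 11.5% in kernels and 2.48% (95% Clopper-Pearson interval 2.00% to 3.03%) at 8 DAP, and 7.08% and 4.53% at 10 and 12 DAP. The share of si1 was at most 0.625% in kernels and 0.990% at 8 DAP, and then 12.97% (95% interval 11.5% to 14.6%) at 10 DAP and 12.4% at 12 DAP. The 6 genes together took between 0.0904% and 0.122% of all reads in kernel libraries, 0.0203% at 8 DAP, 0.00643% at 10 DAP and 0.00157% at 12 DAP. In summed v they lay between 579 and 818 in kernel libraries and at 190.0, 121.7 and 101.0 in endosperm, so that the mean endosperm level was 18.7% of the mean kernel level.

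**Figure D3:**
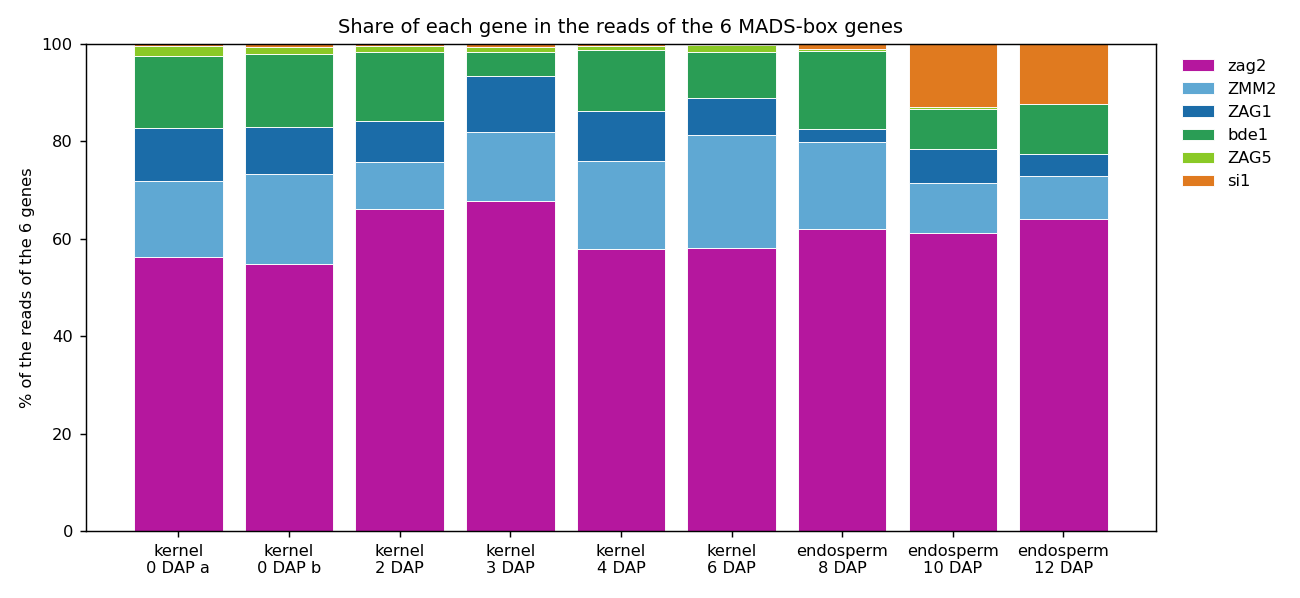
Share of each gene in the reads of the 6 MADS-box genes, in percent, for each of the 9 libraries; the colours stack to 100%. The share of zag2 stays between 54.8% and 67.7%, that of ZAG1 is lowest at 8 DAP (2.48%), and si1 becomes visible at 10 and 12 DAP (12.97% and 12.4%).

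Within the endosperm series the genes lower than in kernels did not share a single course. From 8 to 12 DAP ZMM2 stood 3.80-fold lower (95% interval 2.85 to 5.16), bde1 3.01-fold lower (95% interval 2.30 to 4.02) and zag2 1.82-fold lower (95% interval 1.63 to 2.04), none of which met the rule, where 1.8% of detected models fell and 5.35% of those with v of at least 10 at either stage. These 3 pointed down under every scaling tried. By library totals all 3 met the rule, but so did 25.5% of detected models, in the same direction. For ZAG1 the course depended on the scaling. Its ratio of 12 to 8 DAP was 0.972 under TMM (95% interval 0.603 to 1.52), a log2 ratio of -0.04, against 0.05 with DESeq2 size factors, -0.32 without the 100 most counted models, -2.24 without the zein models and -2.82 by library totals. Its 10 DAP level was 1.83 times that at 8 DAP under TMM (95% interval 1.39 to 2.42) but the lower of both by library totals, at 4.55 against 5.02 CPM. By library totals the median of all detected models moved by -1.46 on the log2 scale from 8 to 12 DAP, against -0.07 under TMM.

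**Figure D4:**
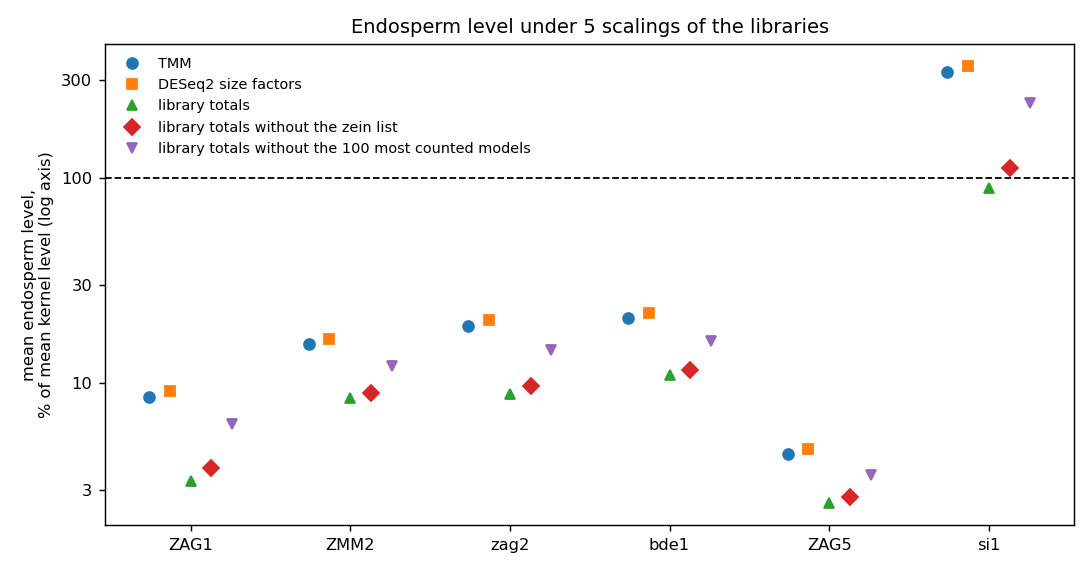
Mean level in the 3 endosperm stages as a percentage of the mean level in the 5 kernel stages (log axis) for each gene under 5 scalings of the libraries; the dashed line marks equal levels. ZAG1, ZMM2, zag2, bde1 and ZAG5 stay at or below 21.8% under each scaling, whereas si1 ranges from 89.2% by library totals to 353% with DESeq2 size factors.

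The other floral MADS-box genes that the name table could place were read beside them. They were 12 models of the APETALA1, PISTILLATA, B-sister and SEPALLATA classes, and all 12 lay lower at every endosperm stage than at any kernel stage, against the 24.2% and 17.2% given above. By the full rule 5 of the 12 fell (2.15% and 0.483% in the background). The median over the 12 of the mean endosperm level as a percentage of the kernel level was 14.9%, for the 6 genes it was 17.2%, and for all models with v of at least 10 in every kernel stage it was 94.3%. From 6 to 8 DAP 8 of the 12 fell, as did 3 of the 6 (ZAG1, ZMM2 and ZAG5), where 3.21% of detected models fell and 8.79% of those with v of at least 10 at either stage. From 0 to 6 DAP none of the 12 and none of the 6 was called, against 1.21% of detected models that fell and 1.99% that rose.

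**Figure D5:**
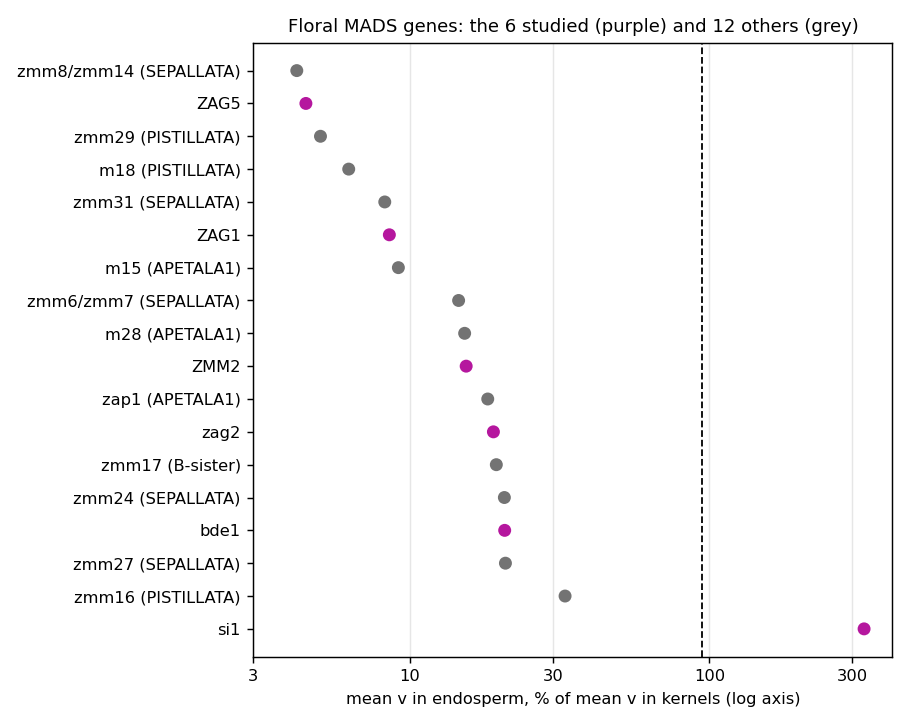
Mean v in the 3 endosperm stages as a percentage of mean v in the 5 kernel stages (log axis) for the 6 genes (purple) and 12 other floral MADS-box genes with their class (grey); the dashed line is the median of the 10062 models with v of at least 10 in every kernel stage (94.3%). All points other than si1 (328%) lie at or below the 33.0% of zmm16.

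The PISTILLATA-class genes, whose proteins pair with that of si1, did not follow it. The model m18 had v = 123.8, 150.5, 165.1, 190.5 and 240.5 in kernels and 11.7, 11.9 and 8.97 in endosperm, and it fell by the rule. Its relative zmm29 had v = 53.4, 71.8, 85.0, 92.4 and 104.8 in kernels and 4.13, 4.46 and 3.69 in endosperm, and fell as well. Both were higher at each later kernel stage, without meeting the rule. Over the same days si1 had v = 3.23, 2.90, 4.53, 3.44 and 1.21, with no steady course. The remaining gene of the class, zmm16, lay at 38.8 to 56.3 in kernels and 12.0 to 19.1 in endosperm and did not meet the rule.

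Of the SEPALLATA class, whose proteins bridge the complexes of floral organ identity, the record shared by zmm6 and zmm7 had v of 465 to 676 in kernels and 42.7 to 102.3 in endosperm and fell. zmm27 lay at 310.3 to 587 in kernels and 51.5 to 120.8 in endosperm and did not meet the full rule. The APETALA1-class models m28 and m15 lay between 39.6 and 72.5 and between 23.9 and 49.9 in kernels, and at no more than 10.6 and 4.09 in endosperm. Both fell from 6 to 8 DAP, and m15 alone met the full rule. The only B-sister gene placed, zmm17, was low throughout, with at most 3.36 in kernels and 0.784 in endosperm.

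The named models most like each gene were sought by Pearson's r of log2(v + 1) over the 8 stages, among 3983 named models with v of at least 10 at a stage. These correlations describe 8 points from 1 series, and for most genes they rest on the step between the tissues. ZAG1 was most like IDP2398 (r = 0.995), DL1 (r = 0.995) and pco119626 (r = 0.992). DL1 (GRMZM2G088309) carries the name of the rice gene DROOPING LEAF, which in rice specifies carpels, and it had v of 88.6 to 164.8 in kernels and 1.20 to 3.52 in endosperm. ZMM2 was most like IDP300 (r = 0.995), zag2 most like IDP2552 (r = 0.9945) and ZAG5 was second most like the ABA- and ripening-related asr1 (r = 0.994).

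The model most like bde1 was the SEPALLATA-class gene zmm24 (r = 0.983), which had v = 31.7, 33.6, 18.8, 29.4 and 21.3 in kernels and 9.30, 3.90 and 3.52 in endosperm. It too was lower at 3 DAP than at 2 and 4 DAP, by less than bde1. The second most like bde1, csu275a(mtl) (r = 0.975), had v = 46.8, 9.07 and 29.7 at 2, 3 and 4 DAP, a deeper drop than that of bde1. The JAZ-family gene TIFY12 was the third (r = 0.962), at v = 26.2, 20.7 and 26.5 at 2, 3 and 4 DAP. All 3 were picked by likeness over these same stages, so their lower 3 DAP levels are not separate evidence. The models most like si1 were gpm913a (r = 0.967) and agpsl1 (r = 0.953), a gene for a small subunit of ADP-glucose pyrophosphorylase in starch synthesis. The latter had v = 29.7 in 6 DAP kernels and 53.5, 669 and 719 in endosperm. Among the 6 genes themselves, r lay between 0.823 and 0.963 for all pairs without si1 and between -0.809 and -0.493 for the 5 pairs with it.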

How the data were processed

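Per the labels' protocols, poly(A) RNA was selected from total RNA of each sample and sequenced on the SOLiD 4 system, and 1 of 3 collected biological replicates per stage was used. The deposited values are raw read counts of 1 library each over the same 110028 models. The tool bedtools is listed, per the submitters' processing notes. Not given in the sources used here are the aligner, genome build, annotation release, use of strand and treatment of reads with several matches. Reads could be split or shared between near-identical family members, and this cannot be judged here. No other model had counts within 2% of those of any of the 6 genes in every library, but partial sharing would not give such near-equal counts.

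Effective library sizes came from edgeR 4.0.16 (TMM over the 9 libraries) in R 4.3.3. For 0 DAP, reads of both technical replicates were added. Ratios carry exact conditional binomial 95% intervals, and levels exact Poisson ones. At v = 10 the count was 547 reads at 6 DAP and 56.8 at 12 DAP. The alternatives replaced TMM by the size factors of DESeq2 1.42.0 or by library totals (all reads, or all but those of 28 zein models found by name). Others dropped the minimum level, lowered the ratio to 2, set the pseudocount to 0.1, used a single technical replicate or omitted a stage. Totals without the 100 most counted models were added after seeing the data. The calling rule was also run on simulated counts with known drops in well counted models and an assumed spread. That run does not cover genes as low as ZAG5 and si1, nor the unmeasured spread between samples of a stage. Computation used scipy 1.17.1, numpy 2.4.6 and pandas 2.3.3 under Python 3.11.15, with plots by matplotlib 3.10.9.

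Names, without coordinates, came from the RefSeq gene table (Zm-B73-REFERENCE-NAM-5.0). The list of other floral MADS genes was matched by symbol, and m15, m18 and m28 were matched by a shorter alias after the table was read. Of this list all genes are counted and the 2 of each class with the highest mean v are named; zmm16, the third of its class, was named after its values were seen. For likeness up to 3 named models per gene were taken. The genes and lists were chosen with earlier results of these data known. No sequence is shown, as none was used here.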

Additional observations from a re-analysis of the deposited data

How the results depend on the processing

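ZAG1 stood below kernels by the full rule under all 17 alternatives. The count of the 6 genes lower in endosperm went from 1 to 2 by library totals, by totals without the zein models and by totals without the 100 most counted models, and with no minimum level, and to 3 with a ratio of 2 or without the 8 DAP stage. zag2 was the added gene by library totals with and without zeins, ZAG5 was added with no minimum level and by totals without the 100 most counted models, and zag2 and ZMM2 without 8 DAP. Of detected models, 1.34% were lower by the full rule by library totals, 1.25% without zeins and 0.942% without the 100 most counted models, against 0.483% under TMM. The count from 6 to 8 DAP went from 3 to 5 with a ratio of 2 (zag2 and bde1 added), and to 4 by library totals, without zeins and without the 100 most counted models (zag2 added). From 8 to 12 DAP the 1 call was si1, higher. By library totals with and without zeins si1 was not called and 3 others were, all lower (ZMM2, zag2 and bde1). Of detected models, 25.5% were lower in that step by library totals and 19.3% without zeins, against 1.8% under TMM. The count was 3 with a ratio of 2 (si1 higher, ZMM2 and bde1 lower) and 2 without the 100 most counted models (si1 higher, ZMM2 lower). In the latter setting 2.86% of detected models were lower. The count over consecutive steps went from 4 to 10, and that of the 12 other floral genes from 5 to 8, with a ratio of 2. Shares of all models were not computed for the changed rule, the omitted stages or, outside TMM, the 6 to 8 DAP step. The summed endosperm level, 18.7% of that in kernels, was 19.9% with DESeq2 size factors, 8.67% by library totals, 9.50% without zeins and 14.2% without the 100 most counted models. It was 17.9%, 15.2%, 19.8% and 21.2% without 0, 8, 10 and 12 DAP. The endosperm level of si1, 328% of that in kernels, was 89.2% by library totals, 112.0% without zeins and 231.7% without the 100 most counted models. No paired analysis was possible because each stage had 1 biological sample. At 12 DAP the counts of ZAG5 (0), ZAG1 (26), ZMM2 (51), bde1 (58) and si1 (71) limit the precision. The cause of these shifts was not tested.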
